A study of Mus musculus with 18 samples.

Results

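The genes described are those of the cytosolic ribosome, the particle that translates mRNA in the cytoplasm. They were chosen by name, as every row whose symbol has the form Rpl or Rps with a number and an optional a, l, x or y, together with Rplp0, Rplp1, Rplp2 and Rpsa. The rule gave 77 genes, 46 of the large and 31 of the small subunit, of 14686 genes listed in any of the 3 deposited tables, and all 77 are listed in each table. Among rows whose label fits the rule, a single symbol went against its identifier. The row named Rpl24 carries ENSMUSG00000022601, which GENCODE release M 21 gives to Zbtb11, a zinc finger gene on chromosome 16 that starts 2447 bases past the end of Rpl24. The gene at chr16:55966275-55971435 on the plus strand (GRCm38), ENSMUSG00000098274, is listed as RPL24 in capitals, and it was taken as Rpl24. With the rows as labelled, no count of genes called in a comparison between groups changed.

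The study profiled RNA of mouse embryonic limb buds with 3 libraries in each of 6 groups. Wild type CD1 forelimbs at e10.5 were set against wild type CD1 hindlimbs at e11.0, stages the submitters matched by morphology, so limb type and age cannot be told apart. Hindlimbs of Pitx1 null embryos were set against wild type hindlimbs at e11.0 and again at e11.5. The labels give the strain of the Pitx1 groups as BALB/c. Pitx1 is a homeodomain transcription factor of the hindlimb. The labels do not describe the null allele, how many limbs a library pooled, or whether replicates are separate litters, so p-values measure the spread between these libraries, which may be technical. Ribosomal RNA was depleted before library preparation at e10.5 and e11.0, and mRNA was enriched at e11.5, and the 3 tables were normalized separately. Levels are CPM, the reads of a gene scaled to the sum over all listed genes of its library. Fold changes are differences of log2(CPM + 1), given with their standard error (SE), and a gene is called higher or lower at an adjusted p under 0.05 in limma.

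Each ribosome holds one copy of nearly every ribosomal protein, and cells make these proteins in step with ribosomal RNA. Most of the mRNAs begin with a run of pyrimidines, the terminal oligopyrimidine or TOP tract, through which mTOR signalling controls their translation. Loss of single members has tissue-specific effects in mice and humans. Mutation of Rpl38 alters the axial skeleton and mutation of Rpl24 gives the Belly spot and tail mouse, in which limb digits can also be affected.

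Implied depth was 17.38 to 53.61 M reads a library. In every group replicates 1 and 2 came from one sequencing run and replicate 3 from elsewhere: from another named run in the Pitx1 groups, unstranded at e11.5, and with no run named in the CD1 groups. Pitx1 had 136, 114 and 122 CPM in the wild type libraries at e11.0 and 22.9, 19.3 and 21.3 in the null ones, so transcript signal remained. At e11.5 it had 319, 330 and 364 CPM against 72.1, 78.8 and 88.6. Tbx5, the forelimb marker, had 70.9 to 121 CPM in CD1 forelimb and 0 to 0.428 in CD1 hindlimb. The mesenchyme markers Prrx1, Prrx2, Twist1, Msx1 and Tbx3 were above 0 in every library. In whole limb buds fewer cells of a type and less RNA per cell cannot be told apart.

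RefSeq promoter windows were found for 57 of the 77 genes by symbol (GRCm38.p6; from 250 bases before the annotated start to 50 after it, taking the most upstream start of a gene). A C followed by at least 7 C or T lay within 50 bases of the annotated start, on the coding strand, in 46 of the 57 genes (80.7%) and in 28.7% of the 27025 genes with a window. The sequences below run 5′ to 3′ from 75 bases before the annotated start to its 25th base, with the longest such run in capitals (the first, where runs tie in length, as in Rps27l). They are shown for the member with the largest change (Rps27l), its sister gene Rps27 and 3 others described below (Rpl38, Rpl5 and Rpl28). Rpl15 and Rps6 are added as clear examples of a run at the start. Their windows are chr9:66946011-66946110, plus strand, for Rps27l, chr3:90213624-90213723, minus strand, for Rps27, chr11:114668505-114668604, plus strand, for Rpl38, and chr5:107900453-107900552, plus strand, for Rpl5. Those of Rpl15, Rpl28 and Rps6 are chr14:18270962-18271061, minus strand, chr7:4792890-4792989, plus strand, and chr4:86857343-86857442, minus strand.
Rps27l: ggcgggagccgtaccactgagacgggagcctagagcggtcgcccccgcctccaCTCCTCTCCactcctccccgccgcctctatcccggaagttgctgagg
Rps27: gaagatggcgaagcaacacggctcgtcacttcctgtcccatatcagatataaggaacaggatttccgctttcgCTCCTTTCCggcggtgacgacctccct
Rpl38: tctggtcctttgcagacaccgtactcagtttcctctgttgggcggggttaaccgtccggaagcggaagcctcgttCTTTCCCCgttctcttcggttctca
Rpl5: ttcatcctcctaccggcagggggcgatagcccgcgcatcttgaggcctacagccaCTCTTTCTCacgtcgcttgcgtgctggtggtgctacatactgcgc
Rpl15: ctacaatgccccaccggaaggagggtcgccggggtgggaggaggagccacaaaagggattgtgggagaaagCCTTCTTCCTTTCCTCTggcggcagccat
Rpl28: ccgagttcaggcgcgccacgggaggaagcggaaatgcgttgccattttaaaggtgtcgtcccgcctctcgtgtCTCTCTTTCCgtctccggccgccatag
Rps6: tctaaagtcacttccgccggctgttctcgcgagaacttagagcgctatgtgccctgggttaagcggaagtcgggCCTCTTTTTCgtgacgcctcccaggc

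The run began 1 base before the annotated start in Rps6, 2 before it in Rps27 and Rpl28, at base 1 in Rpl38 and 22 before it in Rps27l. Other motifs were searched on both strands of the 300-base window. CTTCCG, the core bound by ETS factors such as GABP, was in 40 of 57 members (70.2%) and in 17.2% of all windows. GGGCGG, the core bound by Sp1, was in 34 (59.6%; 35.9% of all), and GCCATNTT, bound by YY1, in 11 (19.3%; 6.2% of all). TATAAA was in 6 members (14.2% of all), CACGTG, the E-box that Myc binds, in 5 (8.77%; 7.24% of all), and TAATCC, bound by Pitx factors, in 3 (5.26%; 7.15% of all). These are matches of letters, and members called higher in the Pitx1 null at e11.0 held the pyrimidine run in 19 of 21 genes with a window, against 27 of the 36 not called. In the same split CTTCCG was in 16 against 24, GGGCGG in 14 against 20 and GCCATNTT in 3 against 8. TATAAA was in 2 against 4, CACGTG in 2 against 3 and TAATCC in 0 against 3. None of these splits was tested.

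The members took 3.29% to 6.57% of the reads on listed genes. In CD1 forelimb the shares were 3.91%, 3.74% and 5.56% for replicates 1, 2 and 3, and in CD1 hindlimb 4.11%, 4.08% and 5.65%. Replicate 3 stood apart in both CD1 groups by more than the groups differed. At e11.0 the wild type shares were 4.72%, 5.27% and 5.41% and the null shares 5.65%, 5.71% and 6.57%. All 3 null libraries lay above all 3 wild type libraries, with means of 5.13% ± 0.365 and 5.98% ± 0.515 (SD, n = 3). At e11.5 the wild type shares were 3.29%, 3.38% and 3.34% and the null shares 3.36%, 3.76% and 3.93%, so replicate 1 of the null lay within the wild type range. Each subunit had a higher share in the null at e11.0, without overlap for the large and with overlap for the small one. In e11.0 wild type the large subunit held 2.64% to 2.92% and the small 2.08% to 2.54%, and in the null 3.13% to 3.48% and 2.52% to 3.09%.

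**Figure D1:**
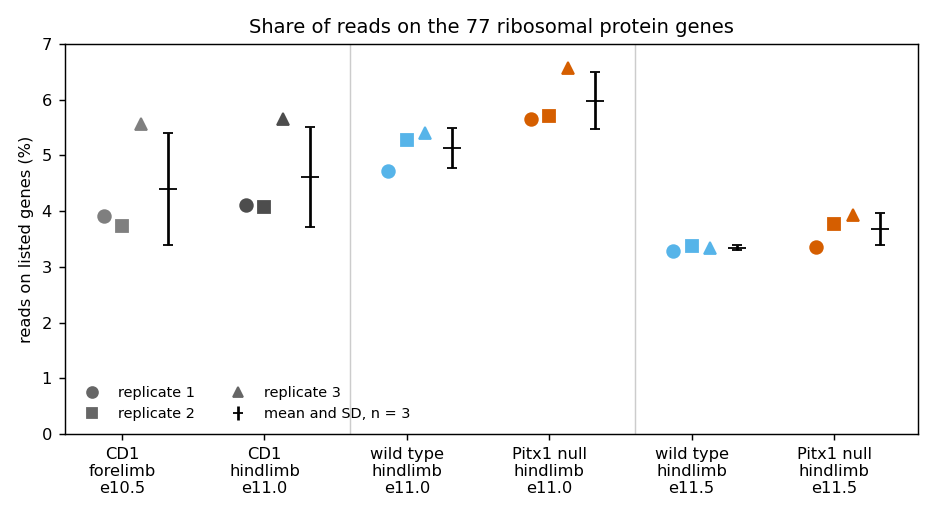
Reads on the 77 ribosomal protein genes as a percent of reads on listed genes (y axis) in each library, by group (x axis). Symbols mark replicates 1, 2 and 3, and bars give the mean and SD of 3 libraries. The null libraries at e11.0 (5.65% to 6.57%) lie above the wild type (4.72% to 5.41%), and replicate 3 stands apart in both CD1 groups.

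Members differed widely in level. Per kb of the principal transcript, Rplp1, an acidic protein of the stalk that recruits elongation factors, was the highest in all 3 tables, with a mean of 1839 CPM per kb in CD1, 3177 at e11.0 and 1497 at e11.5. The lowest in all 3 was Rpl24, with 20.8, 39.8 and 30.2 CPM per kb, and 81.7% of the 50-base windows of its transcript also occur in another gene. Next above it were Rpl29, with 65.3 CPM per kb in CD1, and Rpl13a, with 109. Shared sequence was common among members, since processed pseudogenes copy their mRNAs: the share of such windows was 2.96% in Rps3 and 98.7% in Rps27. The authors' treatment of reads that fit several genes is not stated, so these levels are uncertain. Across the 77 genes Spearman's rho of the fold change with the shared windows was -0.034 in CD1, -0.036 at e11.0 and 0.025 at e11.5, as a description. At e11.0, 16 of 37 genes under 50% shared and 16 of 40 at or above it were called higher.

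In CD1 the members differed more between replicate 3 and the others than between the limbs. Replicate 3 was higher by a median of 0.60 on the log2 scale over the members and by 0.00639 over all genes. At least 2-fold differences (1 on the log2 scale) were found for 12 of 77 members and for 897 of all 13540 genes. Rps28 was 1.80 higher and Rpl31 1.57 higher in CD1 replicate 3, and Rpl24 was 1.53 lower (a difference of -1.53). At e11.0 the median difference was 0.06 and the range ran from -0.83 for Rps4x to 1.15 for Rpl26. At e11.5 it ran from -1.32 for Rpl23a to 0.67 for Rpl29. The fit carries a term for the run. Without it 0 members were called in any comparison, and of all genes 13 were in CD1, 5 at e11.0 and 11 at e11.5.

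No member was called between CD1 hindlimb and forelimb, where 2.41% of all listed genes were called higher and 3.46% lower. At an unadjusted p under 0.05, 14 members were higher, against 10.6% of all genes. In the authors' deposited table, made with edgeR, 3 members were higher, Rpl35a, Rps16 and Rpl26, and 4.75% of all genes. The median fold change of the members was 0.07 and that of all genes 0.01, with 73 members above 0 and a range from -0.10 (Rpl39) to 0.39 (Rpl35a). Only Rps3, a small subunit protein at the mRNA entry channel, had all hindlimb libraries above all forelimb ones (5.87% of all genes did), and 0 members had all below (5.32% of all genes). It had 1220, 1200 and 1250 CPM in forelimb and 1280, 1270 and 1310 in hindlimb.

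Rps16 had the lowest adjusted p in CD1, with 250, 237 and 212 CPM in forelimb and 282, 277 and 231 in hindlimb, a log2 fold change of 0.17 (SE 0.0448, adjusted p = 0.0552). Rpl35a, the gene of a large subunit protein mutated in some cases of Diamond-Blackfan anaemia, had 117, 127 and 230 CPM in forelimb and 175, 197 and 226 in hindlimb. Replicates 1 and 2 were higher in hindlimb and replicate 3 was not, and the log2 fold change of 0.39 (SE 0.11) had an adjusted p of 0.0696. Rpl38 had 150, 124 and 344 CPM against 149, 149 and 354, and Rpl5 had 430, 415 and 1030 against 443, 435 and 1060. For both genes the groups overlapped, and adjusted p was 0.429 and 0.508. Rplp1 had 863, 846 and 929 CPM in forelimb and 947, 925 and 995 in hindlimb, with each pair higher in hindlimb, a log2 fold change of 0.12 and an adjusted p of 0.177. Rps27l had 90.3, 74.3 and 142 CPM against 87.1, 93.3 and 141, so the limbs overlapped and only replicate 2 was higher in hindlimb. Rpl24 stood apart from most members in having a low replicate 3, with 19.7, 17.7 and 5.88 CPM in forelimb and 17.1, 18.7 and 5.43 in hindlimb.

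The Pitx1 null hindlimb at e11.0 had more reads on many members. Of the 77, 32 were called higher (41.6%) and 0 lower, where 4.73% of all listed genes were called higher and 8.41% lower. The 32 were 20 of 46 large subunit and 12 of 31 small subunit genes. The median fold change of the members was 0.24, with 70 above 0 and a range from -0.14 to 0.48, beside a median of -0.07 over all genes. All 3 null libraries lay above all wild type libraries for 22 members (4.78% of all genes), and all lay below for 1, Rplp2 (13.7% of all genes). With the replicate number as a block 46 members were called higher (7.53% of all genes), the 32 and 14 more. Whether the numbers pair the samples is not known. The authors' deposited table called 50 members higher (12.2% of all genes).

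These calls depended on the settings. With the run term 53 members were higher at an unadjusted p under 0.05 (11.1% of all genes) and 0 lower (24.2% of all genes), and without it 0 were called. On replicates 1 and 2 alone, which share a run, Rps27l was the 1 member called. Of all genes 664 were called higher and 1179 lower, and with trimmed-mean scaling 1064 and 524, while 50 members were then called higher and 0 lower. Leaving out 1 library gave 1 to 56 members called: 1 without wild type replicate 1 or 3 or null replicate 2 or 3, 4 without null replicate 1, and 56 without wild type replicate 2. Of all 14027 genes, 1748 were called higher without wild type replicate 2, 310 without null replicate 1, and 39 to 80 without any other single library.

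**Figure D2:**
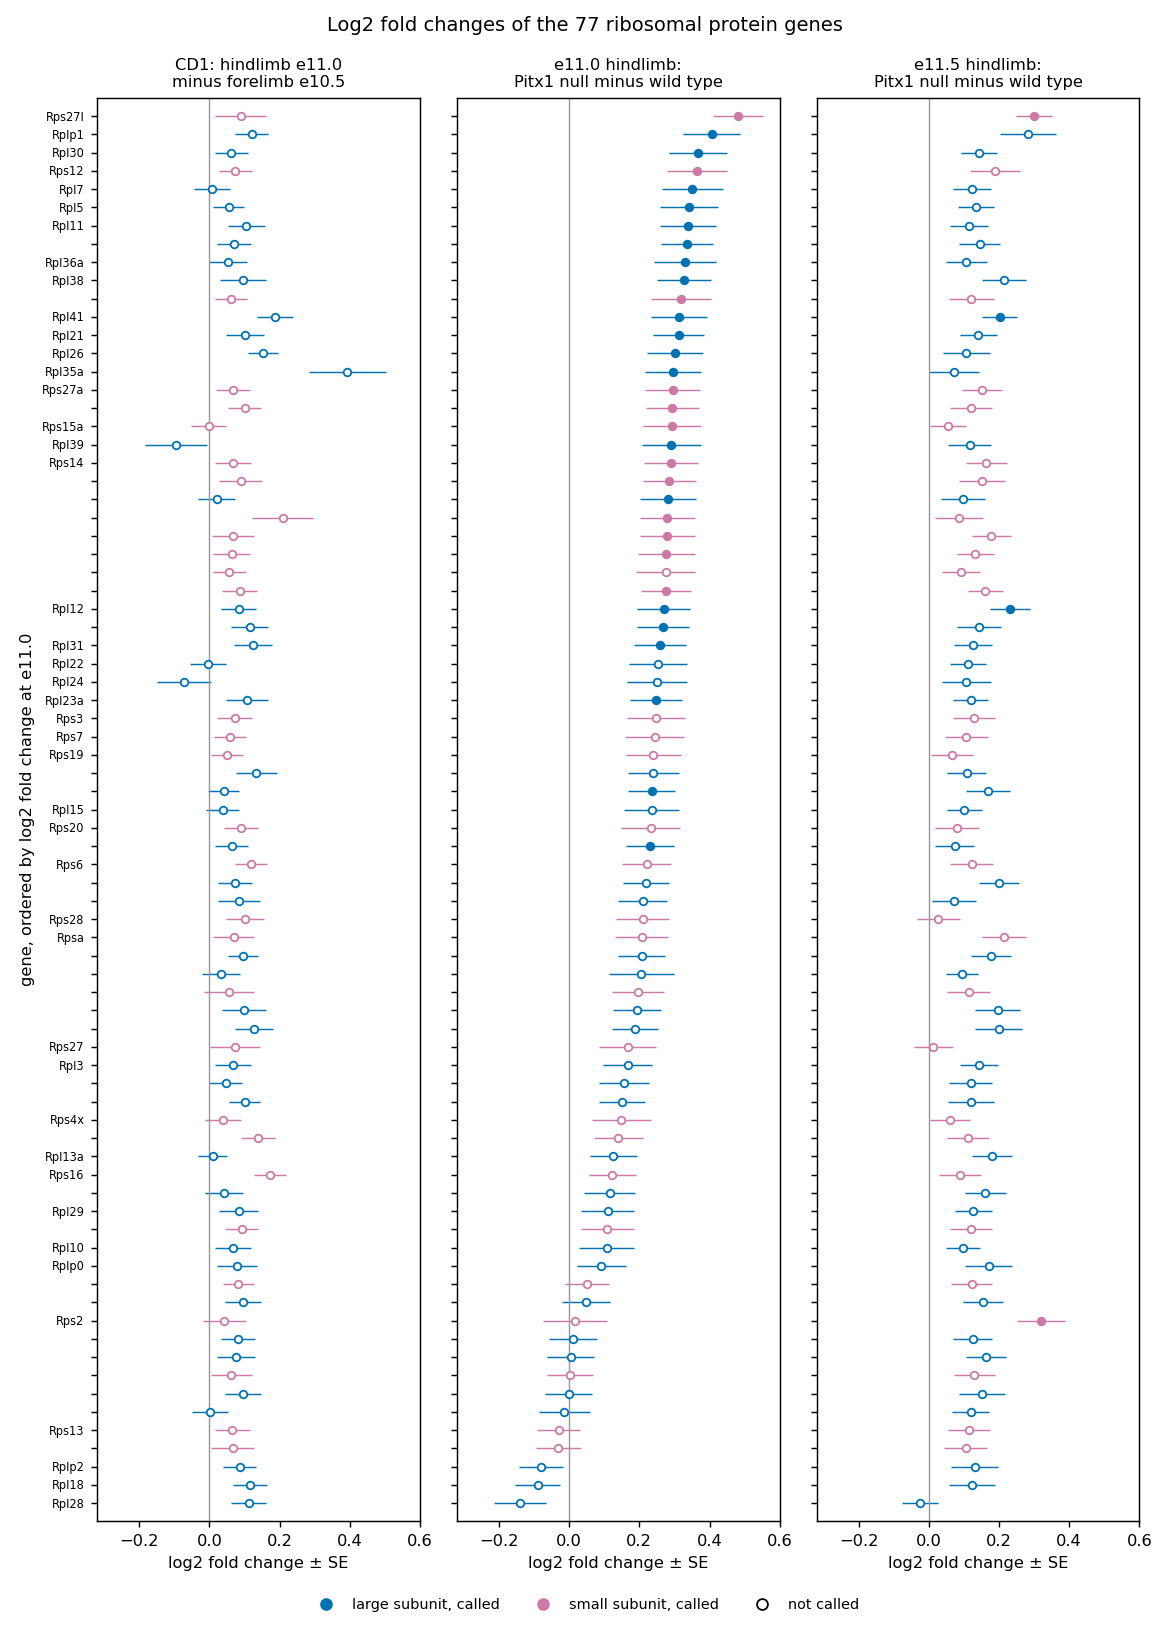
Log2 fold change (x axis, with its SE) of each of the 77 genes (y axis, ordered by the value at e11.0, with names for those described in the text) in the 3 comparisons. Blue marks the large and pink the small subunit, and filled points are called. Filled points number 0 in CD1, 32 at e11.0 and 4 at e11.5, all right of 0.

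The largest rise at e11.0 was that of Rps27l, a paralog of Rps27 and a known target of the tumour suppressor p53. It had 147, 166 and 291 CPM in wild type and 231, 221 and 383 in null libraries. Each null library was above its same-numbered wild type library, while the groups overlapped because replicate 3 was high in both. The log2 fold change was 0.48 (SE 0.0713, adjusted p = 0.00483), and it passed whichever of the 6 libraries was left out and in 19 of 20 alternatives, all but the fit with no run term. Rps27 itself had 489, 595 and 1140 CPM in wild type and 624, 595 and 1260 in null libraries, a log2 fold change of 0.17 that was not called (adjusted p = 0.167). The sister genes share sequence unequally, with 22.4% of the windows of Rps27l and 98.7% of those of Rps27 found in other genes.

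Rplp1 had 1150, 1290 and 1620 CPM in wild type and 1530, 1520 and 2400 in null libraries at e11.0. Its log2 fold change was 0.41 (SE 0.082, adjusted p = 0.0169). The other stalk proteins did not follow. Rplp2 had 420, 408 and 417 CPM in wild type and 386, 384 and 408 in null libraries, all below wild type before rounding, with a log2 fold change of -0.08 (adjusted p = 0.378) that was 0.02 with median-ratio scaling. Rplp0, which anchors the stalk, had 824, 830 and 795 CPM against 848, 841 and 923, with a log2 fold change of 0.09 (adjusted p = 0.363).

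Rpl5 and Rpl11 form a complex with an RNA of the large subunit and bind the p53 regulator Mdm2 when ribosome assembly fails. Rpl5 had 589, 712 and 734 CPM in wild type and 787, 797 and 1000 in null libraries, and the groups did not overlap. Its log2 fold change was 0.34 (SE 0.0829, adjusted p = 0.0287). Rpl11 had 698, 817 and 982 CPM against 915, 932 and 1330, with a log2 fold change of 0.34 (SE 0.0794, adjusted p = 0.0266), and its groups overlapped.

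Rpl38 had 186, 223 and 316 CPM in wild type and 259, 260 and 384 in null libraries. Its log2 fold change was 0.33 (SE 0.077, adjusted p = 0.0271), and the null library was higher in each same-numbered pair. Rpl24 had 23.8, 24.3 and 25.4 CPM against 29.9, 31.6 and 26.7. The groups did not overlap, and its log2 fold change of 0.25 was not called (adjusted p = 0.0728). It passed in 5 of 20 alternatives, the replicate block (adjusted p = 0.0485) and the authors' deposited table (adjusted p = 0.00971) among them.

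Rpl30, Rps12 and Rpl7 completed the 6 largest rises at e11.0, with log2 fold changes of 0.37, 0.36 and 0.35 and adjusted p-values of 0.0233, 0.0272 and 0.0307. Rps12 had 931, 1120 and 1140 CPM in wild type and 1240, 1280 and 1600 in null libraries, with no overlap. Rpl7 had 1780, 2090 and 2290 CPM against 2350, 2370 and 3180, also with no overlap. Rpl30 had 219, 259 and 315 CPM against 296, 287 and 453, and its groups overlapped.

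Of other members on the list of named genes, Rps27a, which encodes ubiquitin fused to a small subunit protein, Rpl39, a small protein of the exit tunnel, and Rps14 were called higher, with log2 fold changes of 0.29 for each. Their adjusted p-values were 0.0374, 0.0463 and 0.036. Rps27a had 491, 579 and 1100 CPM in wild type and 668, 628 and 1380 in null libraries. Rps14 had 802, 925 and 1900 CPM against 1070, 1060 and 2280, and for both genes replicate 3 of either genotype lay far above replicates 1 and 2. Rps19, the gene most often mutated in Diamond-Blackfan anaemia, had 530, 629 and 641 CPM in wild type and 657, 666 and 806 in null libraries. The groups did not overlap, and the log2 fold change of 0.24 had an adjusted p of 0.065 and of 0.0363 with the block. Rps6, the target of the S6 kinases, had 426, 471 and 385 CPM against 516, 551 and 430, with a log2 fold change of 0.22 and an adjusted p of 0.0594 (0.0301 with the block).

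Rps7 and Rpl22 likewise missed the threshold without the block and passed with it, as did 14 members in all. For Rps7 and Rpl22 the log2 fold changes were 0.24 and 0.25 and the adjusted p-values 0.0713 and 0.0625, or 0.0433 and 0.0379 with the block. Rpsa, also known as a laminin receptor, Rpl3, of the peptidyl transferase centre, the X-linked Rps4x, Rpl13a and Rpl10, which joins the large subunit last, were called in neither fit. Their log2 fold changes were 0.21, 0.17, 0.15, 0.13 and 0.11, in that order. Rpsa had 1760, 1950 and 1360 CPM in wild type and 2110, 2100 and 1620 in null libraries. Rps4x had 1360, 1570 and 878 CPM against 1640, 1750 and 887, and in contrast to Rps14 its replicate 3 was low in both genotypes. Fold changes below 0 were found for 7 members. The most negative value was that of Rpl28, with 223, 198 and 234 CPM in wild type and 194, 204 and 194 in null libraries, a log2 fold change of -0.14 (adjusted p = 0.201).

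**Figure D3:**
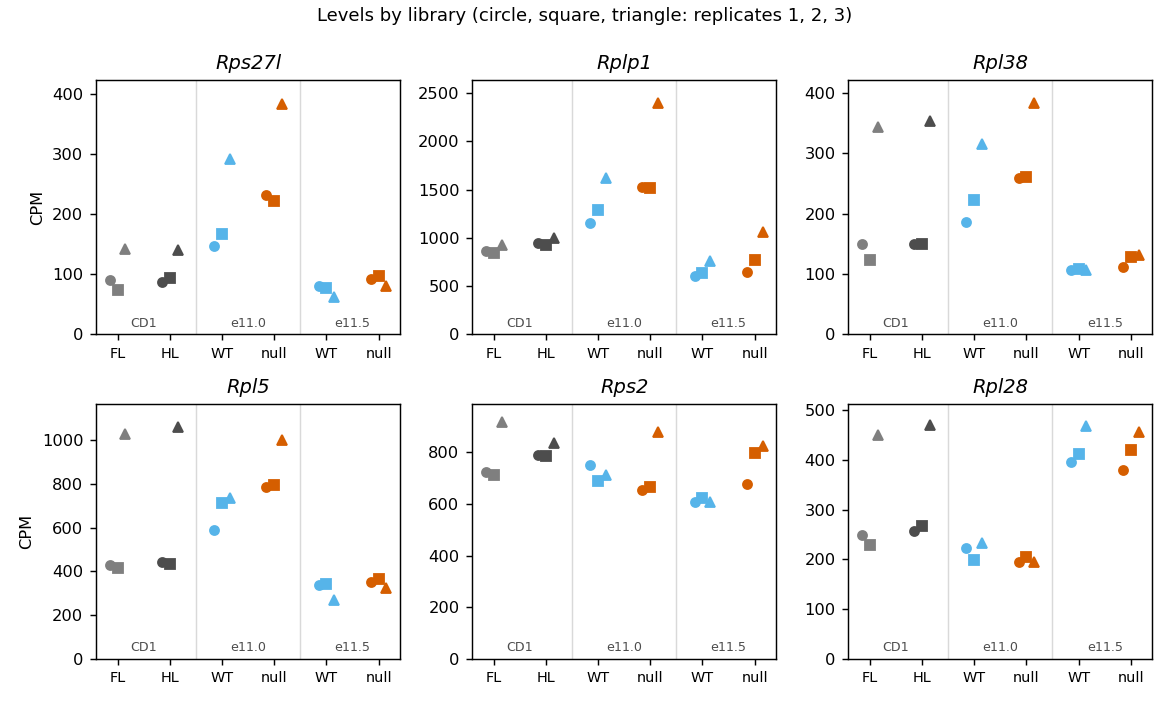
CPM (y axis, from 0) of 6 members in each library, for CD1 forelimb (FL) and hindlimb (HL), and for wild type (WT) and Pitx1 null hindlimb at e11.0 and e11.5. Circles, squares and triangles are replicates 1, 2 and 3. For Rps27l each null library lies above its same-numbered wild type library at both stages, and replicate 3 is high in the CD1 and e11.0 groups.

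Fold changes fell with mRNA length over all genes (Spearman's rho -0.27 in CD1, -0.35 at e11.0 and -0.28 at e11.5), and the members are short. At e11.0 the median over other genes went from 0.11 in the shortest decile to -0.18 in the longest, and 54 members lay in the shortest decile. Their median there was 0.24. Within the 13 members of the next decile it was 0.17, against 0.02 for the other genes of that decile. The long principal transcripts were those of Rps15a, with 5179 bases, Rps20, with 3706, and Rpl18, with 2989, and their levels per kb rest on these annotated lengths.

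Other genes of the same mean CPM as the members (10th to 90th percentile, 229 to 1267 CPM) numbered 644 at e11.0, of which 14.3% were called higher, and their median fold change was 0.01. Those that also had the members' range of length, 497 to 1877 bases, numbered 128. Of these 34.4% were called higher, with a median of 0.18, beside 41.6% and 0.24 for the members. Of the 77 members 18 lay at or above the upper quartile of these 128 genes (0.29) and 51 at or above their median. In CD1 the median over 106 such genes was 0.07, the same to 2 decimals as that of the members, and at e11.5 over 252 such genes it was 0.09, beside 0.12 for the members.

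With the trend on length taken out of each library, 6 members were called higher at e11.0 (4% of all genes) and 0 lower, with a median of 0.09. They were Rps15a, Rpl5, Rps27l, Rpl21, Rpl7 and Rpl30, and Rps27l had a log2 fold change of 0.29 (adjusted p = 0.0225). Rps15a, with the longest annotated transcript, had 0.37 after this step and 0.29 before it. With the block as well, Rpl7 was not called (adjusted p = 0.0628), Rps20, Rpl22 and Rpl15 were called beside the other 5, making 8 higher (6.37% of all genes), and 3 were lower (13.2% of all genes), the 3 being Rplp2, Rps13 and Rpl28. Using the length of all exons in place of the principal transcript, 14 were called higher (4.03% of all genes). Each of these steps rests on annotated lengths. Of the genes called higher with principal transcripts, Rps15a had 5179 bases, Rps20 3706, Rpl22 2051, Rpl5 2045, Rpl15 1922 and Rpl21 1856. Whether limb buds express transcripts of these lengths was not tested, so these calls are uncertain.

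**Figure D4:**
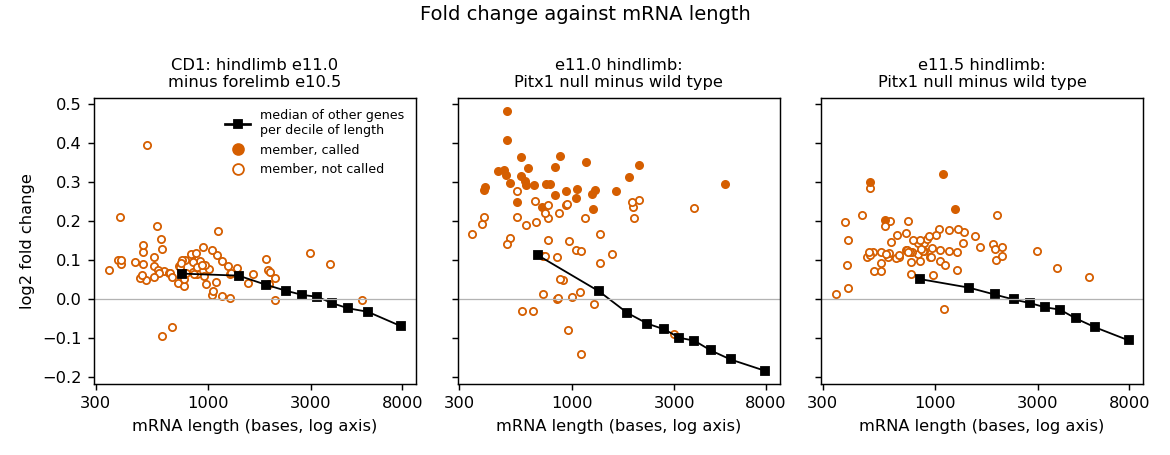
Log2 fold change (y axis) against mRNA length on a log axis (x axis) for the 77 members (circles, filled where called) in the 3 comparisons. Black squares are medians of all other genes per decile of length. At e11.0 these medians run from 0.11 to -0.18, and most members lie above the line.

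At e11.5 4 members were called higher in the Pitx1 null (5.19%; 2.83% of all genes) and 0 lower (7.96% of all genes), and with the block 6 (2.83% of all genes). The median fold change was 0.12 over the members, with 76 of 77 above 0, and -0.02 over all genes. Groups did not overlap, with the null higher, for 10 members (5.48% of all genes), and with the null lower for 0 (11% of all genes). The authors' deposited table had 15 members called higher (8.73% of all genes). Without the run term 0 members were called, while with it 36 were higher at an unadjusted p under 0.05 (11.3% of all genes) and 0 lower (18.7% of all genes). Leaving out null replicate 1 gave 65 members called, and leaving out any other single library gave 0 to 2. Of all 13478 genes, 965 were called higher without null replicate 1, and 60 to 241 without any other single library. Of all genes 382 were called higher and 1073 lower, and with median-ratio scaling 743 and 919, while 12 members were then called higher.

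Rps2, which carries arginine methylation by Prmt3, had 608, 622 and 608 CPM in wild type and 679, 799 and 825 in null libraries at e11.5. The groups did not overlap, and the log2 fold change was 0.32 (SE 0.0685, adjusted p = 0.0216). Rps27l had 80.1, 77 and 61.9 CPM against 91.9, 96.3 and 81. Its groups did not overlap either, and the log2 fold change was 0.30 (SE 0.051, adjusted p = 0.00872). It passed without wild type replicate 1 or 2 or null replicate 1, and missed the threshold without wild type replicate 3 (adjusted p = 0.0561), null replicate 2 (adjusted p = 0.0567) or null replicate 3 (adjusted p = 0.0564).

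Rpl12, at the base of the stalk, had 527, 527 and 523 CPM against 566, 619 and 671, with a log2 fold change of 0.23 (SE 0.0574, adjusted p = 0.0362) and no overlap. Rpl41, which encodes a very small basic protein, had 352, 357 and 514 CPM against 383, 412 and 624. Its log2 fold change was 0.20 (SE 0.05, adjusted p = 0.0362), and the groups overlapped. Rplp1, with 608, 639 and 757 CPM against 652, 767 and 1060, and Rpsa, with 1050, 1110 and 1140 against 1140, 1270 and 1430, missed the threshold, with adjusted p-values of 0.053 and 0.06, and passed with the block, with 0.0434 and 0.0421. Each passed in 6 of 20 alternatives.

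Rpl38 had 107, 109 and 106 CPM in wild type and 112, 129 and 132 in null libraries at e11.5. The groups did not overlap, but the log2 fold change of 0.21 was not called (adjusted p = 0.0607, and 0.0504 with the block). Rpl5 and Rpl11 had log2 fold changes of 0.13 and 0.11, and Rps6 and Rps19 of 0.12 and 0.07, none of them called. Rps27, the sister of Rps27l, had 323, 335 and 246 CPM against 305, 348 and 257, a log2 fold change of 0.01. Rpl28 was the only member below 0, at -0.02 (adjusted p = 0.779).

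With the length trend removed 2 members were called at e11.5 (3.38% of all genes), Rps2 with a log2 fold change of 0.25 (adjusted p = 0.028) and Rps27l with 0.20 (adjusted p = 0.0133). Adding the block called Rpsa as well, so that 3.9% of the members and 3.9% of all genes were called higher.

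Rpl12 and Rpl41 had risen at e11.0 as well. Rpl12 had 977, 1100 and 1210 CPM in wild type and 1190, 1230 and 1550 in null libraries there, with a log2 fold change of 0.27 (SE 0.0759, adjusted p = 0.0435), and Rpl41 had 651, 742 and 740 CPM against 811, 824 and 1030, with 0.31 (SE 0.0798, adjusted p = 0.033) and no overlap. With Rps27l they were called at both stages, which is 3 of the 32 called at e11.0 and 3 of the 4 called at e11.5. Both effects were above 0 for 70 of 77 members. Across the members the effects at the stages were related weakly, with Pearson's r 0.21 and Spearman's rho 0.12, and across all 12935 genes in both tables rho was 0.44. These are descriptions across genes, which are not independent replicates. The difference of the effects, e11.5 minus e11.0, was called for 0 members in limma (0.17% of all genes were called higher and 0.193% lower). At an unadjusted p under 0.05, 3 members were higher and 2 lower, where 14% and 6.56% of all genes were. Its median was -0.11 over the members and 0.05 over all genes. Of all genes 22 were called higher and 25 lower, and with trimmed-mean scaling 24 and 45, with 0 members under either.

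Rps2 had the largest such difference, 0.30 (SE 0.127, adjusted p = 0.205). At e11.0 it had 750, 690 and 714 CPM in wild type and 653, 666 and 881 in null libraries, where replicates 1 and 2 were lower in the null and replicate 3 higher. Rps15a had the most negative one, -0.24 (SE 0.104, adjusted p = 0.22). Leaving out wild type replicate 2 of e11.0 gave 11 members with a lower effect at e11.5, and 698 of all 12935 genes.

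**Figure D5:**
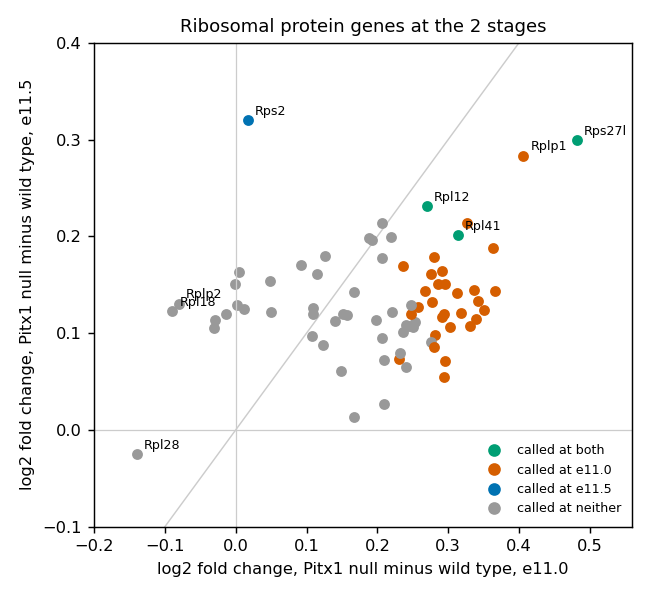
Log2 fold change of Pitx1 null against wild type at e11.5 (y axis) against that at e11.0 (x axis) for the 77 members. Colours mark where a gene was called, and the diagonal marks equal effects. Rps27l, Rpl12 and Rpl41 are called at both stages, and Rps2 lies near 0 at e11.0 and at 0.32 at e11.5.

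Ribosomal genes outside the naming rule were described from a list. Of 6 such genes 2 were called higher at e11.0. Rpl36al, a copy of Rpl36a, had 106, 125 and 142 CPM in wild type and 152, 147 and 211 in null libraries, with a log2 fold change of 0.44 (adjusted p = 0.0118), and Rpl36a had 0.33 (adjusted p = 0.0371). Rpl22l1 had a log2 fold change of 0.30 (adjusted p = 0.0386), and Rpl22 0.25. Rack1, a scaffold on the small subunit, had 1550, 1610 and 1440 CPM against 1570, 1560 and 1560, a log2 fold change of 0.04 (adjusted p = 0.748). Rps3a1, added after its values were seen, had a log2 fold change of 0.30 (adjusted p = 0.0444). Rps4l, so named by its identifier, had one of -0.24 (adjusted p = 0.107). That name fits the rule, but the row bore another label, so Rps4l was not counted among the members. Its value lies below that of Rpl28, the most negative member at e11.0.

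Other genes that serve ribosomes were counted from lists, to be read beside the 4.73% of all genes called higher and 8.41% lower at e11.0, and the 2.83% and 7.96% at e11.5. These shares do not allow for length, with which fold changes fell. Median lengths were 640.5 bases for the host genes of small nucleolar RNAs, 849.5 for the respiratory chain and 1324 for mitochondrial ribosomal proteins. Among the 128 genes with the members' range of CPM and length, 34.4% were called higher at e11.0. The 252 such genes of e11.5 gave 9.92%. Both sets match the members, and no list was tested against genes of its own length. Of 13 listed host genes of small nucleolar RNAs, transcripts that also begin with pyrimidine runs, 7 were called higher at e11.0 with a median of 0.38, and 1, Snhg8, at e11.5 with a median of 0.31, or 4 at e11.5 with the block. The largest at e11.0 were Snhg3, with 0.76 (adjusted p = 0.00483), and Snhg4, with 0.58 (adjusted p = 0.00348), and Gas5 had 0.46 (adjusted p = 0.0143). Of 40 genes of ribosome assembly and RNA polymerase I, 8 were higher at e11.0 and 6 at e11.5, with medians of 0.09 and 0.21 and none lower, or 11 and 5 with the block. Nip7, an assembly factor of the large subunit, had 0.49 at e11.0 (adjusted p = 0.00718), and Rrp9, a component of the box C/D particle that processes ribosomal RNA, had 0.32 at e11.5 (adjusted p = 0.0393).

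Of 22 other TOP mRNAs of translation, 3 were called higher at e11.0 and 2 at e11.5, and with the block Eef1g and Eef2 were also lower at e11.0. Npm1, a nucleolar chaperone of ribosome assembly, was called at both, with log2 fold changes of 0.51 (adjusted p = 0.00872) and 0.33 (adjusted p = 0.0225). Of 76 mitochondrial ribosomal protein genes, 14 were higher at e11.0 with a median of 0.10 (24 higher and 1 lower with the block). At e11.5 6 were higher with a median of 0.13 (7 higher with the block). Of 76 nuclear genes of the respiratory chain, 13 were higher at e11.0 with a median of 0.15 (25 higher and 1 lower with the block), and 0 higher and 1 lower at e11.5. In CD1 hindlimb the assembly, other TOP and host gene lists had 0 genes called. There 1 mitochondrial ribosomal and 3 respiratory chain genes were higher (2.41% of all genes), or 1 of each with the block.

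Of 23 regulators of ribosomal protein synthesis, 2 were higher and 3 lower at e11.0, or 2 and 8 with the block. Cnbp, which binds TOP mRNAs, had 890, 1040 and 864 CPM in wild type and 1350, 1370 and 1370 in null libraries, a log2 fold change of 0.55 (adjusted p = 0.00425). Mtor had -0.32 (adjusted p = 0.0326), Tsc1, an inhibitor of mTOR signalling, -0.36 (adjusted p = 0.0181), and Mxd4, an antagonist of Myc, -0.50 (adjusted p = 0.0118). Mxd4 was also lower at e11.5, by -0.70 (adjusted p = 0.00226), as was Tsc2, by -0.18 (adjusted p = 0.049), which was not called with the block (adjusted p = 0.0536). Larp1, a repressor of TOP translation, and Mycn were not called at either stage. Of 18 listed p53 targets, 1, Ccng1, was higher at e11.0 (log2 fold change 0.26, adjusted p = 0.0486), a share near that of all genes, and with the block 2 were higher and 2 lower. At e11.5 4 of the 18 were lower, Trp53inp1, Btg2, Cdkn1a and Sesn1, beside 7.96% of all genes. The part of p53 in the values of Rps27l was not tested.

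Some lists of markers of other cells moved at e11.0 too, where 4.73% of all genes were called higher and 8.41% lower. The summed level of 12 erythroid markers was 4850 to 11200 CPM in wild type and 6130 to 17700 in null libraries, with replicate 3 highest in both, and 1 of 12 was called higher. Of 8 endothelial markers 7 were called lower, with sums of 188 to 265 CPM and 104 to 200. Of 8 surface ectoderm markers 4 were called higher (5 with the block), with sums of 283 to 702 and 370 to 836. None of these 3 lists had a gene at 0 in any library. All 3 listed muscle precursor markers were lower, with sums of 20.7 to 27 and 5.68 to 13.1, and 1 of 3 nerve markers was higher. Of 4 macrophage markers 0 were called. Of 5 limb mesenchyme markers 2 were lower (3 with the block), with sums of 827 to 1040 and 638 to 866. At e11.5 the erythroid sums were 2880 to 3440 CPM and 2620 to 3050 with no gene called, and 2 endothelial markers were lower. All 6 muscle precursor markers were lower at e11.5, with sums of 52 to 63.5 and 35.6 to 38.1, 1 of 5 macrophage markers was lower, and 2 mesenchyme markers were higher. Of 8 surface ectoderm and 4 nerve markers 0 were called at e11.5, or 1 nerve marker lower with the block. At that stage 2.83% of all genes were called higher and 7.96% lower. The part of these cells in the members' values was not tested.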

How the data were processed

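RNA-seq of 18 mouse limb bud libraries was used as 3 deposited tables, 1 per comparison. The authors used STAR, featureCounts and edgeR with builds mm10 and GRCm38, per the submitters' processing notes. Their versions and their settings for strand and multi-mapping reads are not given in the sources used here. The authors deposited CPM per library, scaled to listed genes, together with log2 values (fold change and mean level), a likelihood-ratio score and raw and adjusted p-values, per the file headers. Listed genes exceeded 0.5 CPM in at least 3 libraries. All 77 members are listed in each table. CPM values were whole multiples of 1 read (within 0.01 read), which gave the depths; intervals from depth would cover counting error only, and none is printed.

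On log2(CPM + 1), which understates the change of low genes, limma 3.58.1 (R 4.3.3) was run per table with a mean-dependent prior and terms for group and run (that of replicates 1 and 2 against the other), with 3 residual degrees of freedom. P-values are two-sided and adjusted by Benjamini-Hochberg across a table's genes. The stage difference was an interaction over the 12935 genes in both Pitx1 tables. Deviations from group means of libraries with the same number correlated in every pair (0.64 to 0.94 over all genes, each over 0.1). Replicates 1 and 2, which share a run, also correlated across numbers (0.41 to 0.85). In CD1 these values were 0.75 and 0.85, against 0.69 and 0.8 for the same numbers. Since replicate 3 came from elsewhere in every group, these correlations cannot show whether the numbers pair the samples. The block takes the numbers as pairs, and blocked values are given for some of the calls that they change. Lengths and shared 50-base windows came from principal transcripts of GENCODE release M 21, and promoters from RefSeq.

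The fit was tested on simulated data, where it missed some small changes and made some false calls, most often at e11.0. Members, gene lists and tests were chosen with earlier results of these data known. Named are, per comparison, up to 6 called members with the largest rise and 6 with the largest fall, members on a list of 25 genes, and the extremes of level per kb. Of the 25 genes, Rps4l, Rpl3l, Rpl10l and Rpl39l are not among the members. Up to 4 called genes are named per other list. Rps2 at e11.0, Rps3, Rps13, Rps15a, Rps16, Rps20, Rpl15, Rpl18, Rpl21, Rpl26, Rpl28, Rpl29, Rpl31, Rpl35a, Rpl36a, Rps28, Rpl23a, the uncalled genes of other lists and the members named for the length step were named after their values were seen. Rpl3l, Rpl10l and Rpl39l were not analysed here, and values of some single genes are not reported here.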

Additional observations from a re-analysis of the deposited data

How the results depend on the processing

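No result named here changed direction where called. Values are members called higher unless stated. Without the run term, 13 of all genes were called in CD1, 5 at e11.0, 11 at e11.5 and 0 for the stage difference, and 0 members in either Pitx1 comparison. With the replicate block 3442 of all genes were called at e11.0 and 210 for the stage difference. Trimmed-mean scaling gave 50 members (median 0.302) at e11.0, where 7.59% of all genes were higher. At e11.5 it gave 11 (5.13% of all genes). Median-ratio scaling gave 52 (median 0.333) at e11.0, where 9.45% of all genes were higher, and 12 at e11.5 (5.51% of all genes). Upper-quartile scaling gave 1 in CD1 (2.68% of all genes), a median of 0.3 at e11.0 and 72 of all genes for the stage difference. Rescaling to nuclear protein-coding genes gave 2 in CD1 (2.79% of all genes). Removing the length trend gave 6 (median 0.0902) at e11.0 and 2 at e11.5; with the replicate block, 8 higher and 3 lower (median 0.0902) at e11.0 and 607 of all genes for the stage difference; with union-of-exons lengths, 14 (median 0.137) at e11.0. The stage difference called 31 of all genes with a pseudocount of 0.1, 102 with 5, and 24 among genes of at least 5 CPM.

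The authors' deposited table called 3 members and 1689 genes in CD1, at e11.0 50 members (median 0.303) among 2895 genes, and at e11.5 15 among 2644. Replicates 1 and 2 alone gave 1 member and 471 genes in CD1, at e11.0 1 member among 199 genes, at e11.5 0 among 483, and 18 genes for the stage difference.

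Leaving out 1 library gave 0 to 8 members in CD1 (8 without forelimb replicate 1) and 394 to 1191 of all genes. It gave 1 to 56 higher and 0 to 1 lower at e11.0, with a median of 0.187 to 0.296 and 116 to 5273 genes, 56, 1, 0.296 and 5273 being without wild type replicate 2. At e11.5 it gave 0 to 65 members and 433 to 2627 genes, 65 and 2627 without null replicate 1. For the stage difference it gave 0 to 11 members lower and 10 to 2567 genes, 11 and 2567 without e11.0 wild type replicate 2. A fit without 1 library assumes that a lone sample of its run varies like the others.

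The share of reads on members without a listed pseudogene and with under 50% of windows shared was 1.74% and 1.83% in CD1 forelimb and hindlimb, 1.97% and 2.29% in the wild type and null of e11.0, and for those of e11.5 1.5% and 1.64%. This set held 25 members in CD1, 25 at e11.0 and 29 at e11.5, since the pseudogenes listed differ by comparison. Without the 3 members of highest CPM the e11.0 wild type and null had 4.56% and 5.29%, and those of e11.5 2.96% and 3.25%. Count tests on reads recovered from the CPM (edgeR, DESeq2) were planned and not run. The cause of these changes was not tested. Depth was not limiting for members, since 1 read was worth at most 0.0575 CPM.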
